A study of Rattus norvegicus with 9 samples.

Results

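The interferon response and antigen presentation genes of the rat left ventricle were followed as a group of 44 members. Members came from a list of 46 gene names, and the transcript values of each name were summed. A gene was kept when its mean was at least 1 CPM over the 9 libraries. CPM is the usual per-library scaling of a count by its library's total. For this limit and the averages in this paragraph the total was unadjusted, while the levels given further on use an adjusted total. Of the listed names, 45 were found in the tables. Xaf1 was not matched and is not analysed here. RT1-Ba, the alpha chain of a class II molecule, averaged 0.721 CPM and fell below the limit, while RT1-DMa, the member nearest to it from above, averaged 1.54 CPM. The 44 members divide into 29 interferon response genes and 15 antigen presentation genes, and all 44 were among the 15467 of 22608 genes that passed the filter on low counts.

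Hearts of Sprague-Dawley rats, whose age is given as 8 weeks plus 28 days, provided left ventricular RNA for 9 libraries. The 3 groups, of 3 libraries each, had received for 28 days either saline, or angiotensin II (abbreviated Ang II), or that hormone and sodium butyrate (NaBu) at once, the group written Ang II+NaBu. Ang II is the peptide hormone that constricts blood vessels and raises blood pressure, and it is given to rodents to load and scar the heart. NaBu is the salt of a short-chain fatty acid made by gut bacteria, and it inhibits histone deacetylases. The labels used here give no dose and do not say whether each library is another animal. Every p-value below therefore measures only the spread between these samples, which may be technical.

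Interferons are secreted proteins that cells release when they sense viral or other misplaced nucleic acids. They bind surface receptors whose JAK kinases activate transcription factors, among them STAT2 and IRF9, and these enter the nucleus and switch on a shared set of target genes: antiviral proteins, guanylate-binding proteins, chemokines and the machinery that presents antigen. Class I molecules display peptides that the immunoproteasome cuts and the TAP transporter carries, on most cells, while class II molecules, loaded with the help of the invariant chain CD74 and the DM proteins, are made mainly by macrophages, dendritic cells and B cells. In the rat the major histocompatibility complex is called RT1.

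Total estimated counts ran from 29284780 to 49865446 per library. The 6 ventricular cardiomyocyte markers summed to between 52590 and 66210 CPM in 8 libraries and to 38550 CPM in saline replicate 2, where the 5 atrial markers summed to 5632 CPM against 24.5 to 256.6 CPM elsewhere. Saline replicate 3 held the next highest atrial sum. Several values below are therefore also given without both of these libraries. Because the groups lie in separate deposited tables, table and group cannot be told apart.

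The members' promoters were searched for motifs of the factors that these pathways are known to use. Promoter sequences, from 250 bases before to 50 bases after each gene's start, came from RefSeq (build GRCr8, of another rat strain) and were found for 35 of the 44 members. Those without an entry were Isg15, Oas2, Mx2, Ifit2, Usp18, Dhx58, Ddx58, RT1-DMb and Ciita. The core of the interferon-stimulated response element, which binds the STAT and IRF factors, was searched as GAAANNGAAA on both strands. It stood in 19 of the 35 member promoters (54.3%), against 3.92% of all 33469 promoters and 2.98% of the 12444 promoters of tested genes. By role, it stood in 13 of 22 interferon member promoters, 4 of 5 promoters of class I and loading genes and 0 of 5 promoters of class II genes. The Y box, TGATTGG on both strands, which class II promoters are known for, stood in 4 of those 5 class II promoters and in 7.06% of all promoters. Outside class II it stood in 4 of 22 interferon member promoters (Irf8, Stat2, Cxcl9 and Cxcl10) and in those of RT1-A2 and Psmb9. The gamma-activated site, TTCNNNGAA, the same letters on either strand, stood in 10 of 35 member promoters and in 8.87% of all promoters. It shares letters with the response element and can overlap it. A match describes the letters of this window only.

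The stretch from 150 bases to 1 base before the start is shown for some of the members described below. All of those shown hold a match, so that promoters with the response element can be set beside those with the Y box. Members without the response element core, among them Irf1, Irf8, Ifi47, Mx1, Parp9 and Psmb9, are described below but not shown. Each stretch shown is written 5′ to 3′ in the direction of its gene, with its GRCr8 position. In the first set, capitals mark the response element core in the promoters of the RNA sensor Ifih1, the antiviral enzyme Rsad2, the GTPases Igtp and Gbp2 and the class I loading genes Tap1 and Tapbp.
Ifih1, chr3:67683969-67684118, minus strand: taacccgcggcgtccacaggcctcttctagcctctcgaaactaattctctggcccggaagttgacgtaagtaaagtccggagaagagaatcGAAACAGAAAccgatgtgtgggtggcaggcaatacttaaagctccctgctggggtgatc
Rsad2, chr6:48788121-48788270, minus strand: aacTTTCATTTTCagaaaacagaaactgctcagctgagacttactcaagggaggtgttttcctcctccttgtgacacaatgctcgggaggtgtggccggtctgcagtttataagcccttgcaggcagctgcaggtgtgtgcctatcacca
Igtp, chr10:42874897-42875046, plus strand: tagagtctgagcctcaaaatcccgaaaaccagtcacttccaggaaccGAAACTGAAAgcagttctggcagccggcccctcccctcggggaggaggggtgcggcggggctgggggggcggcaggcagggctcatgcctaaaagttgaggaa
Gbp2, chr2:234005577-234005726, plus strand: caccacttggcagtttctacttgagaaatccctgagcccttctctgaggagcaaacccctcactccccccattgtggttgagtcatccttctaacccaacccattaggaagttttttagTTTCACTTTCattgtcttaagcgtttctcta
Tap1, chr20:4668544-4668693, minus strand: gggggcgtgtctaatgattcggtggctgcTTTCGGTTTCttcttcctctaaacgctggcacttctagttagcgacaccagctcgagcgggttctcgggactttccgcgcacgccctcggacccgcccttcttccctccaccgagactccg
Tapbp, chr20:4967878-4968027, minus strand: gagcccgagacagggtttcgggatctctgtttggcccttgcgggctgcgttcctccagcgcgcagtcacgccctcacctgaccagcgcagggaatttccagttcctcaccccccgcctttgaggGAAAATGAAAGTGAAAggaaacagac
The core lay 59 bases before the start in Ifih1, 147 in Rsad2, 103 in Igtp, 31 in Gbp2 and 121 in Tap1. Tapbp held overlapping copies at 26 and 20 bases before the start.

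In the second set, capitals mark the Y box in the promoters of the class II chain genes RT1-Da, RT1-Db1 and RT1-Bb, of the class II loading gene RT1-DMa and of the class I gene RT1-A2.
RT1-Da, chr20:4515265-4515414, plus strand: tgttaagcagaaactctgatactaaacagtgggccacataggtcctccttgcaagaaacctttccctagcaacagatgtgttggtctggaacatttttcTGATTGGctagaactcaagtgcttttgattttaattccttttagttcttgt
RT1-Db1, chr20:4560163-4560312, minus strand: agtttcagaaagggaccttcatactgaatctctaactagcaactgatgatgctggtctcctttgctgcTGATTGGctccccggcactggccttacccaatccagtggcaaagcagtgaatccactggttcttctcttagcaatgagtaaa
RT1-Bb, chr20:4604119-4604268, minus strand: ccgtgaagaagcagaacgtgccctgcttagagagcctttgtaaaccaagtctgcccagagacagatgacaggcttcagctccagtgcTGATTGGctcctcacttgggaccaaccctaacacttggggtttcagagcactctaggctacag
RT1-DMa, chr20:4712336-4712485, minus strand: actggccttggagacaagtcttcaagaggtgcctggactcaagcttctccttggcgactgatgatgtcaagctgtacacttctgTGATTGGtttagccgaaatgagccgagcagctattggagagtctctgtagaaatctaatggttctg
RT1-A2, chr20:4872721-4872870, plus strand: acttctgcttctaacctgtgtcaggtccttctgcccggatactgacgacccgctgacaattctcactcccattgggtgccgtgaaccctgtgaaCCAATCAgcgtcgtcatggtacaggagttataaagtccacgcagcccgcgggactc
The Y box began between 51 and 82 bases before the start in the 4 class II promoters. It ran on the opposite strand in RT1-A2, at 56 bases before the start. Cd74 was the class II gene with a promoter in the table and no match.

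**Figure D1:**
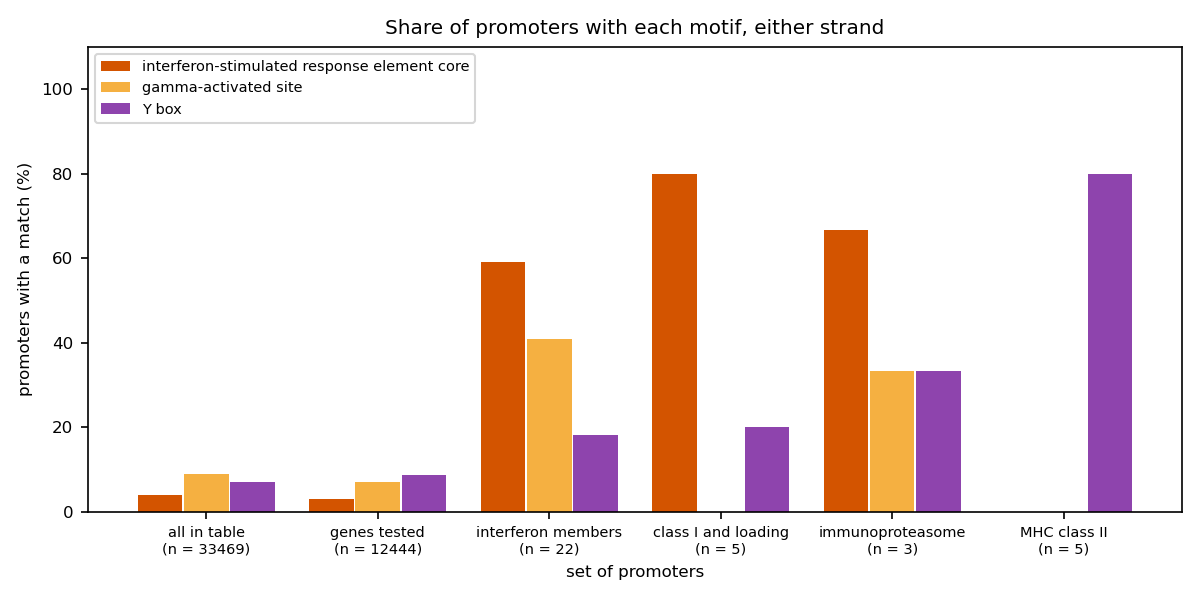
Share of promoters (%) that hold each motif on either strand, for all promoters in the RefSeq table, the promoters of tested genes and the members by role; n is the number of promoters. The response element core stands in 59.1% of interferon member promoters and 80% of class I and loading promoters, and the Y box in 80% of class II promoters.

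Across the 3 groups, most members had their highest mean with Ang II. The Ang II mean was the highest of the 3 for 37 of 44 members (84.1%), against 29.4% of all tested genes, and for 26 of the 29 interferon members. All 12 antiviral effectors, all 6 transcription factors, all 4 GTPases and all 3 immunoproteasome subunits were in that count. For the class II genes, saline had the lowest mean for all 6, and the highest mean was with Ang II for 3 and with Ang II+NaBu for the other 3. Ang II+NaBu had the lowest mean for 25 members and saline for 19. The means are a description, and how far each pair of groups differed is given comparison by comparison.

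**Figure D2:**
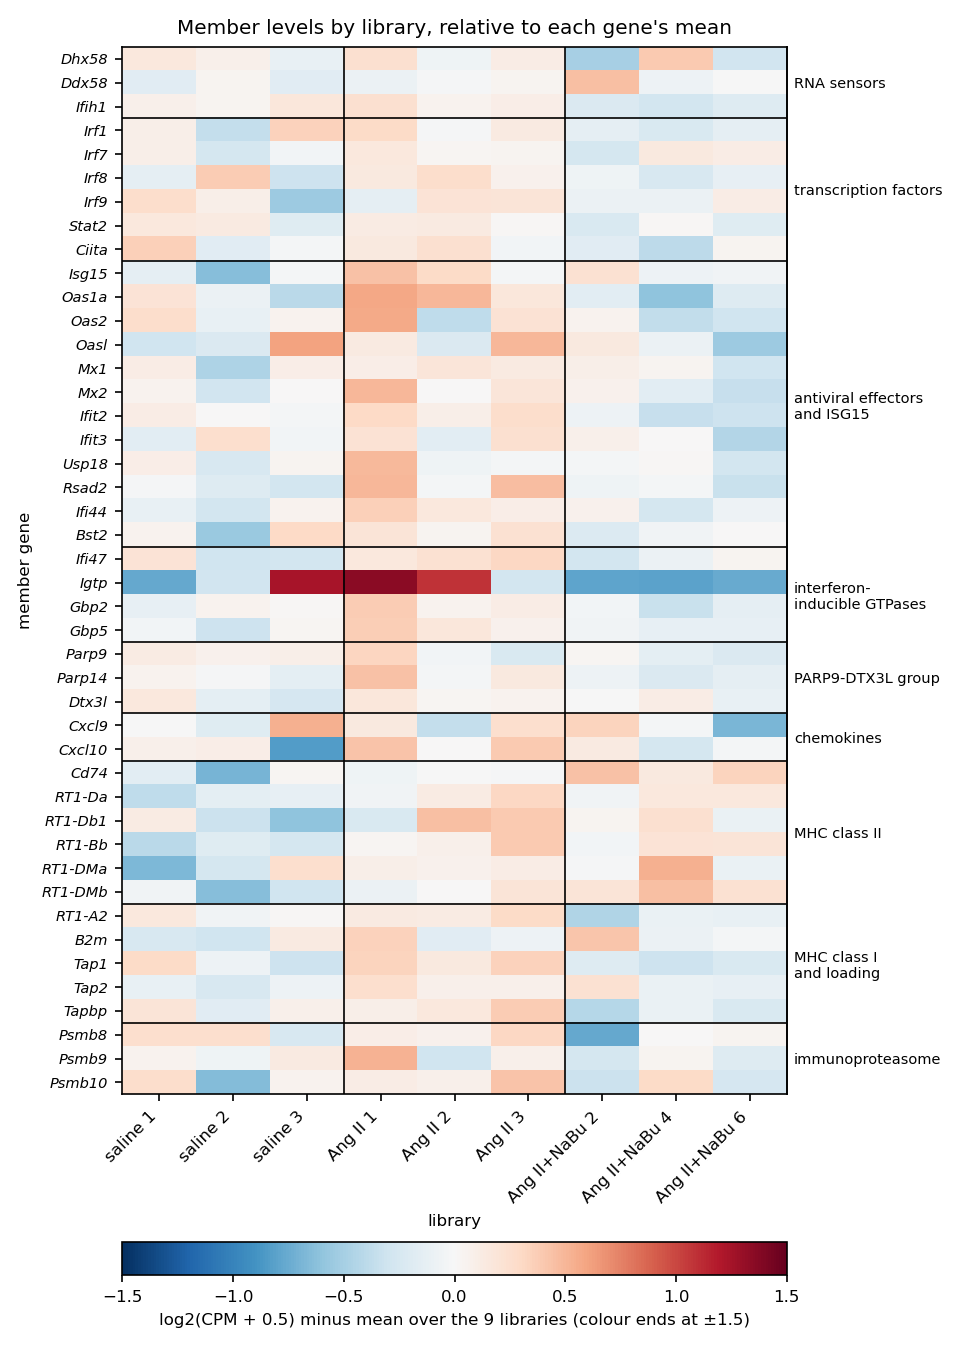
Level of each member in each library, as log2(CPM + 0.5) minus that gene's mean over the 9 libraries (red above, blue below, colours end at ±1.5), with members in rows grouped by role. The Ang II columns are mostly red, most of all in Ang II replicate 1, where 17 of the 29 interferon members reached their highest level, and the Ang II+NaBu columns are mostly blue outside the class II block.

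Setting Ang II against saline asks whether the hormone alone moved these genes. Members were higher on average with Ang II in 42 of 44 cases, but by small amounts: the median log2 difference was 0.19 for the interferon members and 0.29 for the antigen presentation members, against -0.005 for all tested genes, of which 49% averaged higher. The 2 exceptions were the chemokine Cxcl9 and Parp9, a partner of the ubiquitin ligase DTX3L. No member passed an adjusted p of 0.05 in edgeR's quasi-likelihood test, and 0% of the 15467 genes did. At an unadjusted p under 0.05 edgeR held 5 members, all higher, where 2.44% of all genes were higher and 3.49% lower, and DESeq2 called 0 members among its 57 genes. In 6 members (Ifi44, Gbp2, Gbp5, RT1-Da, RT1-Bb and Tap2) every Ang II library lay above every saline library, and in 0 every one lay below, where 4.94% and 4.97% of all genes did so. As this is bulk tissue, fewer cells of a type and less RNA per cell cannot be told apart in any of these values.

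Rsad2, viperin, an enzyme that makes a chain-terminating nucleotide against viruses, had the lowest p of the members. Its level was 26.4, 23.2 and 21.9 CPM in the saline libraries and 37.9, 26.04 and 36.8 CPM in the Ang II libraries. Ang II replicates 1 and 3 stood above all saline libraries and Ang II replicate 2 just below the highest of them, so the groups overlapped. The log2 difference was 0.49 (SE 0.16), with an edgeR adjusted p of 0.743. Ifi44, an interferon-induced protein of the cytoplasm, was at 20.5, 18.2 and 22.96 CPM with saline and 28.5, 24.8 and 23.7 CPM with Ang II. Here every Ang II library lay above every saline library, and the log2 difference was 0.32 (SE 0.13) with an edgeR adjusted p of 0.798.

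Among the GTPases, which coat and break open the vacuoles of invading microbes, all 4 averaged higher with Ang II. Gbp5 was at 16.6, 13.6 and 17.4 CPM with saline and 22.2, 19.2 and 17.9 CPM with Ang II. Its groups did not overlap, by a narrow margin, and the log2 difference was 0.32 (SE 0.13) with an edgeR adjusted p of 0.796. Ifi47 was at 16.6, 11.6 and 11.7 CPM with saline and 16.1, 16.9 and 17.9 CPM with Ang II. Saline replicate 1 reached into the Ang II range, and the log2 difference of 0.35 (SE 0.16) had an edgeR adjusted p of 0.837.

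The class II genes averaged higher with Ang II in 6 of 6 cases, with a median log2 difference of 0.38. RT1-Da, the alpha chain of the rat's DR-like molecule, was at 24.1, 28.6 and 29.1 CPM with saline and 30.5, 34.6 and 39.5 CPM with Ang II. RT1-Bb, the beta chain of its DQ-like molecule, was at 3.42, 4.09 and 3.81 CPM with saline and 4.79, 4.99 and 6.33 CPM with Ang II. Both genes had every Ang II library above every saline library, with log2 differences of 0.35 (SE 0.12) and 0.51 (SE 0.19) and edgeR adjusted p of 0.744 and 0.765.

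The class I and loading genes averaged higher in 5 of 5 cases (median 0.18), and the immunoproteasome subunits in 3 of 3 (median 0.099). Without saline replicates 2 and 3 the interferon median was 0.11, with 22 of 29 members higher, the antigen presentation median was 0.10, with 11 of 15 higher, the immunoproteasome averaged higher in 1 of 3 cases, and 0 members were called. Without saline replicate 2 alone the antigen presentation median was 0.14. The log2 difference without saline replicates 2 and 3 was 0.35 for Rsad2, 0.32 for Ifi44, 0.25 for Gbp5 and 0.035 for Ifi47. In the same fit it was 0.53 for RT1-Da and 0.65 for RT1-Bb.

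**Figure D3:**
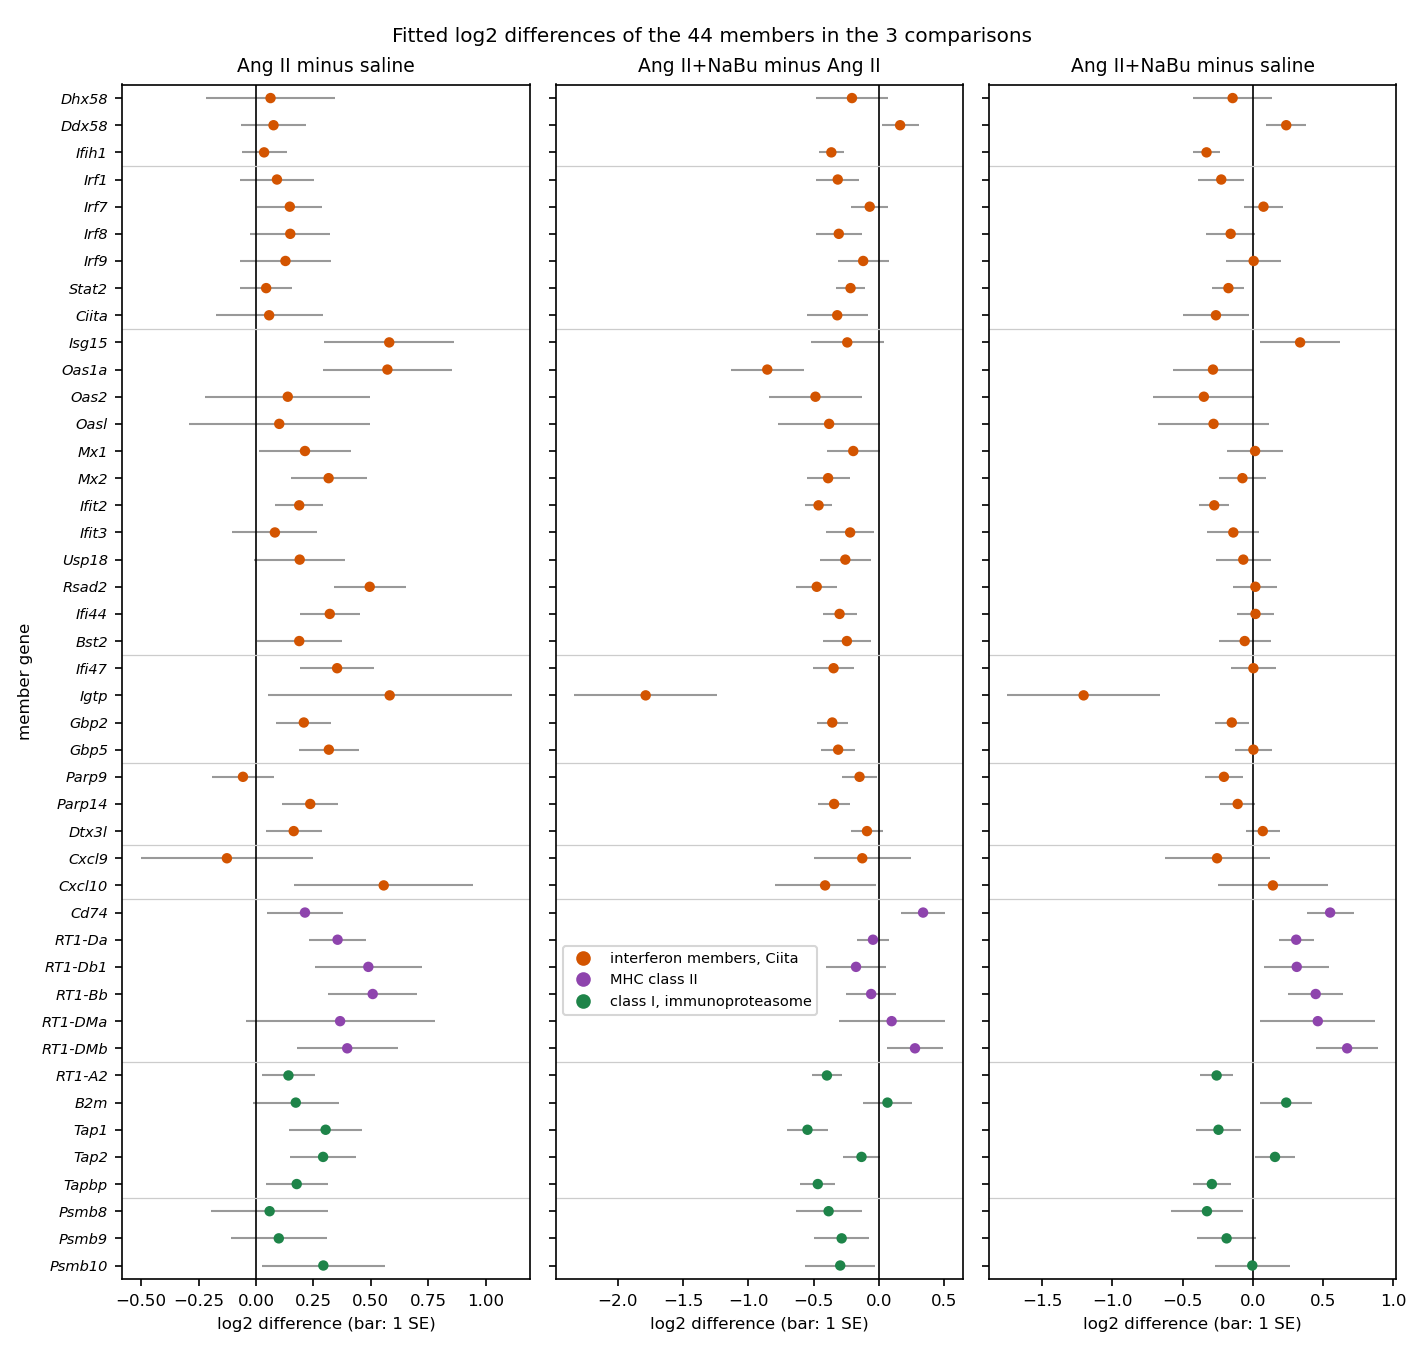
Fitted log2 difference of each of the 44 members in the 3 comparisons (points) with 1 standard error (bars), by role from top to bottom. Points lie mostly right of 0 for Ang II against saline and mostly left of 0 for Ang II+NaBu against Ang II, where Igtp lies at -1.79, and the class II genes lie right of 0 for Ang II+NaBu against saline.

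The comparison of Ang II+NaBu with Ang II asks what butyrate added to the hormone's effect. It uses the same Ang II libraries as the comparison before, so the counts of members in these comparisons are not independent of each other. Members can also vary together from library to library, so a count of members is not a count of separate results. Of the 44 members, 39 averaged lower with NaBu, where 52.7% of all genes did and 47.3% averaged higher, and 28 of the 29 interferon members were among them. The median log2 difference was -0.31 for the interferon members and -0.17 for the antigen presentation members, against -0.025 for all genes. The 5 members with a higher mean were the RNA sensor Ddx58, the class II genes Cd74, RT1-DMa and RT1-DMb, and B2m, the light chain of class I. No member passed an adjusted p of 0.05 in edgeR, where 1.6% of the 15467 genes did (0.647% rose and 0.957% fell). At an unadjusted p under 0.05 edgeR held 13 members lower and 0 higher, beside 11.1% of all genes lower and 11.3% higher. DESeq2 called 6 members, all lower, among its 1521 genes. In 17 members every NaBu library lay below every Ang II library, and in 2 every one lay above, where 17.5% and 18.1% of all genes did so.

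The lowest adjusted p belonged to Ifit2, which binds foreign RNA and blocks its translation. Its level was 54.9, 50.95 and 49.6 CPM with saline, 62.2, 53.96 and 60.8 CPM with Ang II and 48.2, 39.7 and 40.7 CPM with Ang II+NaBu. All NaBu libraries lay below all 6 others. The group means were 59.01 ± 4.43 and 42.9 ± 4.62 CPM (SD, n = 3) with Ang II and with Ang II+NaBu, a log2 difference of -0.46 (SE 0.11) with an edgeR adjusted p of 0.0563. Under other settings its adjusted p was 0.0452 with upper-quartile scaling, 0.0492 with the values divided by 4 and 0.00575 in DESeq2.

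Ifih1, or MDA5, senses long double-stranded RNA. It was at 22.7, 22.1 and 24.1 CPM with saline, 25.3, 22.2 and 22.9 CPM with Ang II and 18.4, 17.7 and 18.7 CPM with Ang II+NaBu. The NaBu libraries were the lowest 3 of the 9 and close to each other. The log2 difference from Ang II was -0.36 (SE 0.098) with an edgeR adjusted p of 0.0813. The groups overlapped for the other RNA sensors. Ddx58, or RIG-I, averaged 31.3 ± 1.38 CPM without NaBu and 35.1 ± 7.36 CPM with it, and Dhx58, or LGP2, averaged 3.995 ± 0.472 and 3.47 ± 1.35 CPM (SD, n = 3).

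The 12 antiviral effectors and ISG15 system genes averaged lower in 12 of 12 cases, with a median log2 difference of -0.34 and a range from -0.85 in Oas1a to -0.20 in Mx1. Rsad2 was at 25.4, 26.1 and 21.01 CPM with Ang II+NaBu, where the saline libraries were at 26.4, 23.2 and 21.9 CPM, and its lowest Ang II library lay within the NaBu range. Oas1a, which makes the 2-5A signal that activates an RNA-cutting enzyme, was at 4.46, 4.18 and 3.23 CPM with Ang II and 2.46, 1.68 and 2.41 CPM with Ang II+NaBu, with no overlap. Mx1, a GTPase that traps viral particles, averaged 7.54 ± 0.249 and 6.59 ± 0.993 CPM (SD, n = 3). Of the 12, 5 had every NaBu library below every Ang II library: Oas1a, Mx1, Ifit2, Ifi44 and Bst2, the last of which tethers budding viruses to the cell. The margin was narrow for Mx1, with NaBu libraries up to 7.275 CPM and Ang II libraries from 7.315 CPM. So it was for Ifi44 (23.14 and 23.72 CPM) and Bst2 (30.19 and 31.09 CPM). Isg15, the ubiquitin-like tag of the system, averaged 3.31 ± 0.607 and 2.80 ± 0.396 CPM and its groups overlapped, as did those of Usp18, the protease that removes the tag. The groups also overlapped for Mx2, Oas2, Oasl and Ifit3, relatives of the genes above, with log2 differences of -0.39, -0.49, -0.38 and -0.22.

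All 4 GTPases had every NaBu library below every Ang II library. Igtp, an immunity-related GTPase, showed the largest difference and the largest spread: it was at 3.75, 5.42 and 16.4 CPM with saline, 17.97, 14.8 and 5.45 CPM with Ang II and 3.67, 3.61 and 3.77 CPM with Ang II+NaBu. The NaBu libraries were nearly equal, while saline replicate 3 and Ang II replicates 1 and 2 were high and the other 3 were low. The log2 difference was -1.79 (SE 0.55) with an edgeR adjusted p of 0.105, and DESeq2 gave an adjusted p of 0.00682. Its reads divided unevenly between 2 transcripts, so that Ang II replicate 1 had 24 estimated counts on the first and 573 on the second, and Ang II replicate 3 had 236 and 0. Gbp2, which attacks vacuoles that hold microbes, was at 40.9, 32.6 and 34.05 CPM with Ang II and 30.5, 24.9 and 28.6 CPM with Ang II+NaBu. Gbp5 was at 16.5, 15.7 and 15.7 CPM with Ang II+NaBu and Ifi47 at 11.7, 13.5 and 14.8 CPM, both below their Ang II libraries.

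The 6 transcription factors all averaged lower, with a median log2 difference of -0.26. Irf1, which drives class I and immunoproteasome genes, was at 35.8, 28.9 and 32.2 CPM with Ang II and 26.4, 24.9 and 26.6 CPM with Ang II+NaBu. Irf8, a factor of macrophages and dendritic cells, was at 15.9, 17.2 and 15.1 CPM with Ang II and 13.7, 12.1 and 13.2 CPM with Ang II+NaBu. The groups did not overlap for either gene, and the log2 differences were -0.32 and -0.31. Irf7, Irf9, Stat2 and Ciita, the master switch of class II genes, overlapped between the groups, with log2 differences of -0.07, -0.12, -0.22 and -0.32.

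The other interferon members belong to the PARP9-DTX3L group and the chemokines. Parp14, an ADP-ribosyltransferase of the same locus as Parp9 and Dtx3l, was at 99.5, 71.9 and 81.4 CPM with Ang II and 69.4, 63.2 and 66.8 CPM with Ang II+NaBu, without overlap. Parp9 and Dtx3l overlapped, with log2 differences of -0.15 and -0.091. The T cell attracting chemokines were near the floor of the data: Cxcl9 averaged 2.72 ± 0.683 and 2.499 ± 1.01 CPM and Cxcl10 2.27 ± 0.432 and 1.70 ± 0.305 CPM (SD, n = 3).

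Class I genes and their loading factors averaged lower in 4 of 5 cases, with a median log2 difference of -0.40. RT1-A2, a class I heavy chain, was at 52.4, 51.7 and 57.9 CPM with Ang II and 34.6, 44.3 and 43.98 CPM with Ang II+NaBu. All NaBu libraries were below all 6 others, whose saline values were 53.2, 45.7 and 48.1 CPM. The log2 difference was -0.40 (SE 0.12) with an edgeR adjusted p of 0.0951. RT1 class I genes are near copies of each other, and how reads shared between them were assigned is not known.

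Tap1, one subunit of the peptide transporter, was at 16.3, 14.3 and 16.5 CPM with Ang II and 11.1, 10.2 and 10.9 CPM with Ang II+NaBu. Tapbp, or tapasin, which bridges the transporter to class I, was at 27.6, 29.1 and 33.98 CPM with Ang II and 19.2, 24.2 and 22.1 CPM with Ang II+NaBu. Both had every NaBu library below every Ang II library, with log2 differences of -0.55 (SE 0.16) and -0.47 (SE 0.14) and edgeR adjusted p of 0.0948 and 0.0935. Tap2, the other transporter subunit, was at 12.2, 10.8 and 10.8 CPM with Ang II and 12.01, 9.48 and 9.30 CPM with Ang II+NaBu, and its groups overlapped. B2m averaged 501 ± 98.3 CPM without NaBu and 524 ± 105 CPM with it (SD, n = 3), higher by less than its spread, and it averaged lower when libraries were scaled by their total alone.

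The 3 immunoproteasome subunits averaged lower with NaBu, with a median log2 difference of -0.30. Psmb8 was at 6.86, 6.71 and 8.02 CPM with Ang II and 3.53, 6.42 and 6.58 CPM with Ang II+NaBu, without overlap, and Psmb9 and Psmb10 overlapped, with log2 differences of -0.28 and -0.30. The subunits they replace in the constitutive proteasome averaged higher in 3 of 3 cases, with a median log2 difference of 0.26. Of these, Psmb5 averaged 36.2 ± 5.88 and 44.7 ± 7.57 CPM (log2 0.30 (SE 0.20), edgeR adjusted p 0.392) and Psmb7 81.98 ± 4.30 and 98.5 ± 8.03 CPM (log2 0.26 (SE 0.18), adjusted p 0.412). The ratio of Psmb8 to the subunit it replaces, Psmb5, was 0.232, 0.175 and 0.196 in the Ang II libraries, 0.180, 0.297 and 0.147 in the saline libraries and 0.0980, 0.131 and 0.134 in the NaBu libraries. The 3 NaBu ratios of this pair were the lowest of the 9. The other pairs overlapped: Psmb9 to Psmb6 was 0.189, 0.192 and 0.167 with Ang II+NaBu and 0.362, 0.172 and 0.198 with Ang II, and Psmb10 to Psmb7 was 0.0585, 0.108 and 0.0649 with Ang II+NaBu and between 0.0842 and 0.124 in the Ang II and saline libraries. Since the ratio depends on transcript length it compares libraries and not the 2 genes of a pair.

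Of the class II genes, 3 of 6 averaged higher with NaBu and 3 lower, with a median log2 difference of 0.026. Cd74 was at 209, 218 and 215 CPM with Ang II and 296, 241 and 275 CPM with Ang II+NaBu. RT1-DMb, a chain of the DM peptide editor, was at 4.25, 4.56 and 5.27 CPM with Ang II and 5.28, 6.39 and 5.39 CPM with Ang II+NaBu. These were the 2 members with every NaBu library above every Ang II library, RT1-DMb by a narrow margin. Their log2 differences were 0.34 and 0.28. RT1-Da, RT1-Db1 and RT1-Bb, the chains of the class II molecules, differed by -0.045, -0.17 and -0.059 on the log2 scale. Whether class II genes responded differently from class I genes was not tested. The class II count rested on single libraries: 5 of 6 averaged higher without Ang II replicate 3 or without Ang II+NaBu library 2, and 2 of 6 without Ang II+NaBu library 4 or with scaling by library total.

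**Figure D4:**
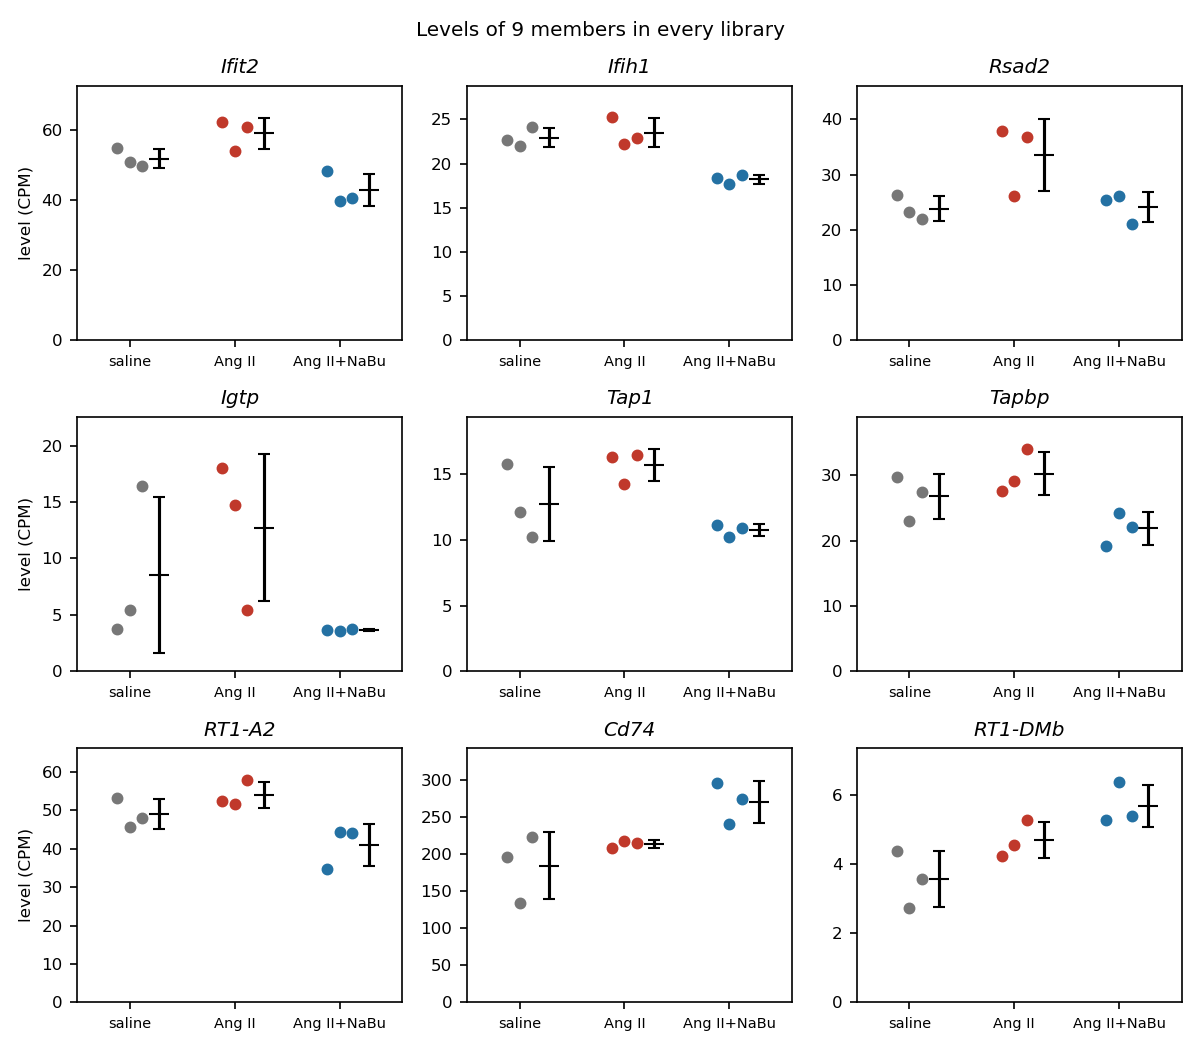
Level (CPM, from 0) of 9 members in each library, with group mean and SD (n = 3) beside the points. Ifih1, Ifit2 and RT1-A2 have their 3 NaBu points below all others, Igtp has 3 high libraries from both other groups, and Cd74 and RT1-DMb have their NaBu points at the top.

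Among the Ang II libraries, replicate 1 held the interferon members at their highest. The median log2 ratio of the interferon members to their 9-library mean was 0.29 there, 0.032 in replicate 2, 0.13 in replicate 3, and -0.050, -0.092 and -0.18 in the NaBu libraries. Without Ang II replicate 1 the interferon median was -0.21. The 248 genes called over the whole table rested on every library of these 2 groups: edgeR called 1 gene without Ang II replicate 1, 4 and 2 without replicates 2 and 3, 5, 3 and 4 without Ang II+NaBu libraries 2, 4 and 6. Without a saline library the number was 44, 1482 and 560 in the order of the replicates. When the fit held the 2 groups alone, edgeR called 6 members among the 1802 genes it called over the whole table. Of these members, Ifih1, Ifit2, Igtp, Tap1 and Tapbp fell and Cd74 rose. In DESeq2 the 6 were Ifih1, Ifit2, Igtp, RT1-A2, Tap1 and Tapbp.

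The comparison of Ang II+NaBu with saline asks which members stood away from the untreated level when both agents were given. It uses libraries of both earlier comparisons, so its values stand beside theirs and add no independent evidence. Members split, with 19 of 44 averaging higher and 25 lower (44.7% and 55.3% of all genes), and medians of -0.11 for the interferon members and 0.16 for the antigen presentation members, against -0.051 for all genes. No member passed an adjusted p of 0.05 in edgeR, where 5.06% of genes did (3.01% rose and 2.05% fell). At an unadjusted p under 0.05 edgeR held 4 members higher and 2 lower, beside 12.4% and 12.2% of all genes, and DESeq2 called 2 members, Cd74 and RT1-DMb, among its 2007 genes. In 4 members every NaBu library lay above every saline library and in 4 every one lay below, where 14.5% and 14.1% of all genes did so.

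The higher members at that unadjusted level were all class II genes. Cd74 was at 196, 134 and 224 CPM with saline, all below the NaBu libraries, and averaged 185 ± 45.7 against 271 ± 27.9 CPM (SD, n = 3). Its log2 difference was 0.55 (SE 0.17) with an edgeR adjusted p of 0.0793. RT1-DMb was at 4.38, 2.74 and 3.58 CPM with saline, also all below, with a log2 difference of 0.67 (SE 0.22) and an edgeR adjusted p of 0.0971. RT1-Da was at 30.6, 35.4 and 35.3 CPM with Ang II+NaBu. RT1-Bb was at 4.54, 5.47 and 5.45 CPM. For these genes the log2 differences were 0.31 (SE 0.12) and 0.45 (SE 0.19) and the edgeR adjusted p 0.161 and 0.187. All 6 class II genes averaged higher than with saline (median 0.46), and 5 of 6 did so without saline replicates 2 and 3. Saline replicate 2 held the lowest Cd74 level of all 9 libraries, and without that library the Cd74 difference was 0.38 (edgeR adjusted p 0.0808). Without saline replicate 3 it was 0.71 and called (edgeR adjusted p 0.0356), and without both it was 0.47 (edgeR adjusted p 0.111).

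The lower members at that level were Ifih1, with a log2 difference of -0.33 (SE 0.098) and an edgeR adjusted p of 0.0767, and Ifit2, with -0.27 (SE 0.11) and 0.146. Both had every NaBu library below every saline library, as did Parp9 and RT1-A2. The interferon members with the lowest p for Ang II against saline had small differences here: on the log2 scale 0.019 for Rsad2, 0.02 for Ifi44, 0.005 for Ifi47 and 0.005 for Gbp5, with SE from 0.13 to 0.16. Igtp differed most in size, by -1.21 (SE 0.55), but saline replicate 1 lay among its NaBu libraries. The antiviral effectors averaged lower in 8 of 12 cases, and in 11 of 12 with upper-quartile or library total scaling. Immunoproteasome subunits averaged lower in 3 of 3 cases, and in 2 of 3 with DESeq2's size factors. Their log2 differences were -0.33 for Psmb8, -0.19 for Psmb9 and -0.003 for Psmb10, so Psmb10 was level with saline. The groups overlapped for each of these subunits. Without saline replicates 2 and 3 the interferon median was -0.16, with 24 of 29 members lower, and the antigen presentation median was -0.058.

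Genes of the same pathway outside the members were read for context. The interferons themselves were hardly seen: of 11 interferon genes in the tables, Ifna1, Ifna2, Ifnb1, Ifne, Ifnl1 and Ifnl3 were listed at 0 in all 9 libraries, Ifng, or interferon gamma, had 0 to 14 estimated counts, and Ifnk was the one that passed the filter, with 6 to 28 estimated counts. If a fragment gives about 4 estimated counts, as the low values point to, these are a few fragments per library. Of 16 receptor and signalling genes, 0 were called for Ang II against saline, where Irf2 was among those with the lowest p. Irf2, a repressor of interferon genes, had a log2 difference of 0.21 (SE 0.10) with an edgeR adjusted p of 0.865.

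Irf3, the factor that nucleic acid sensors activate to start interferon production, was the signalling gene called with NaBu. It was at 39.7, 41.2 and 34.5 CPM with saline, 39.1, 39.3 and 38.99 CPM with Ang II and 26.3, 25.7 and 25.1 CPM with Ang II+NaBu. The NaBu libraries were the lowest 3 of the 9, and Irf3 fell by 0.61 on the log2 scale against Ang II (edgeR adjusted p 0.0372) and by 0.58 against saline (adjusted p 0.0174). Its reads were spread unevenly over 6 transcripts, and with its most abundant transcript alone the log2 difference was -0.042 against Ang II and 0.22 against saline. Tyk2, a kinase of the interferon receptor, fell by 0.54 against saline (edgeR adjusted p 0.0419), and 0 signalling genes rose in either comparison with NaBu.

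Of 16 nucleic acid sensing genes, 0 were called for NaBu against Ang II, where the lowest p belonged to Adar, the RNA editing enzyme (log2 -0.31 (SE 0.099), edgeR adjusted p 0.113), and Trim25, a ligase that activates RIG-I (log2 -0.26 (SE 0.099), adjusted p 0.161). Against saline, Ikbke, a kinase that phosphorylates IRF3, fell by 1.09 (edgeR adjusted p 0.0305), from 10.8, 15.6 and 9.28 CPM to 5.53, 5.60 and 5.70 CPM. For Ang II against saline 0 were called, and the lowest p belonged to Ikbke (log2 -0.55 (SE 0.22), edgeR adjusted p 0.785) and Tlr9, a DNA receptor (log2 0.77 (SE 0.43), adjusted p 0.894).

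Other interferon-induced genes, which are not on the member list, numbered 43 after the filter. With NaBu, 34 of 43 averaged lower than with Ang II (median -0.30) and 2 fell: Helz2, a helicase and coactivator, from 87.4, 75.9 and 81.5 CPM to 60.1, 54.7 and 55.1 CPM (log2 -0.53 (SE 0.097), edgeR adjusted p 0.0427), and Ifit1bl, from 33.4, 29.4 and 34.3 CPM to 21.99, 19.5 and 20.2 CPM (log2 -0.65 (SE 0.13), adjusted p 0.0445). Against saline, Ifitm2, a membrane protein that restricts viral entry, fell by 0.49 (edgeR adjusted p 0.0305), and Pnpt1, a mitochondrial RNA-processing enzyme, rose by 0.70 (adjusted p 0.0156). For Ang II against saline 29 of 43 averaged higher (median 0.12) and 0 were called. The lowest p there belonged to Ccl5, a chemokine (log2 0.64 (SE 0.23), edgeR adjusted p 0.746), and Ube2l6, the enzyme that passes ISG15 to its targets (log2 0.46 (SE 0.17), adjusted p 0.749).

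Of 30 further class I and class II genes, 18 averaged lower with NaBu than with Ang II (median -0.22), 0 fell and 1 rose. The one that rose was Canx, calnexin, a chaperone of the endoplasmic reticulum that folds class I chains, from 511, 536 and 518 CPM to 740.1, 669 and 708 CPM (log2 0.43 (SE 0.092), edgeR adjusted p 0.0498). Against saline Canx rose by 0.45 (edgeR adjusted p 0.0305) and Psme1, a subunit of the interferon-inducible proteasome activator, by 0.58 (adjusted p 0.0305). For Ang II against saline 0 were called, with the lowest p for Ctss, a protease that trims the invariant chain (log2 -0.42 (SE 0.13), edgeR adjusted p 0.743), and the class I gene RT1-S3 (log2 0.23 (SE 0.10), adjusted p 0.842). For the constitutive proteasome 0 of 3 were called in that comparison, and Psmb6 and Psmb7 differed by -0.11 and 0.11.

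These pathway calls were close to the threshold. Those of Irf3, Helz2, Ifit1bl and Canx against Ang II were lost in edgeR without any 1 of the 6 Ang II and NaBu libraries, at adjusted p from 0.0987 to 0.207. Without saline replicate 1 edgeR lost Helz2, Ifit1bl and Canx at adjusted p from 0.0563 to 0.0663, and all 4 calls were lost with library total scaling (0.0641 to 0.123) and with the highest transcript alone (0.155 to 0.988). Against saline, those of Irf3, Ikbke, Pnpt1, Ifitm2, Psme1 and Canx were lost without Ang II+NaBu library 2 or 6, at edgeR adjusted p from 0.0632 to 0.134, and that of Tyk2 at 0.122 and 0.17. Without Ang II+NaBu library 4, 5 of these 7 calls were lost (edgeR adjusted p 0.0561 to 0.083), and other single libraries ended those of Tyk2, Psme1, Canx, Ifitm2 and Ikbke at edgeR adjusted p from 0.0534 to 0.0883. All 7 were lost with only the 2 groups in the fit, at edgeR adjusted p from 0.07 to 0.115, and with the highest transcript alone, at 0.0676 to 0.907. Library total scaling lost those of Tyk2, Ikbke, Ifitm2 and Canx, at edgeR adjusted p from 0.05 to 0.07. The fit without saline replicates 2 and 3 left 1 saline library, so only sizes are given here and no call is read from it. In that fit the log2 differences were -0.55 for Tyk2, -0.94 for Ikbke and -0.41 for Ifitm2. They were 0.55 for Pnpt1, 0.60 for Psme1 and 0.51 for Canx. DESeq2 made all of the calls named here, against Ang II and against saline. The direction of each held in these fits except for Irf3 against saline with its highest transcript.

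Markers of the cell types that heart tissue holds were read beside the members. Endothelial markers averaged lower with NaBu than with Ang II in 12 of 12 cases (median log2 difference -0.24), and 1, Egfl7, a factor that endothelial cells secrete, fell (log2 -0.61 (SE 0.084), edgeR adjusted p 0.0296, and 0.0987 to 0.159 without any 1 of the 6 Ang II and NaBu libraries). Their summed level was 2227 to 2575 CPM with saline, 2279 to 2593 with Ang II and 1893 to 2227 with Ang II+NaBu, none of the 12 was at 0, and the highest sum was in Ang II replicate 1, as for the interferon members. Without that library 11 of 12 averaged lower, with a median of -0.17. Against saline they also averaged lower with NaBu in 12 of 12 cases (median -0.15), in 11 of 12 without saline replicates 2 and 3, and Egfl7 fell by 0.56 (edgeR adjusted p 0.0149, and 0.055 to 0.1 without any 1 of the NaBu libraries). Their part in the lower member levels with NaBu was not tested.

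Among immune cells, the dendritic cell markers averaged lower with NaBu than with Ang II in 6 of the 6 that passed the filter (median -0.51), with sums of 27.5 to 33.8 CPM with saline, 30.0 to 38.7 with Ang II and 17.3 to 27.1 with Ang II+NaBu, and Siglech was at 0 in 8 libraries. T and NK cell markers averaged lower in 9 of 10 cases (median -0.43; sums 48.6 to 64.9, 52.3 to 59.8 and 42.5 to 54.5 CPM), and B cell markers in 5 of 5 (median -0.54; sums 4.62 to 5.53, 3.48 to 7.29 and 2.70 to 4.26 CPM), with Cd79b and Ms4a1 at 0 in Ang II+NaBu library 2. Macrophage markers averaged lower with Ang II than with saline in 11 of 12 cases (median -0.36) and higher with NaBu than with Ang II in 7 of 12 (median 0.12), with sums of 352.5 to 461.4, 333.5 to 378.6 and 349.3 to 389.3 CPM and none at 0. For Ang II against saline, where all 6 class II genes averaged higher, dendritic cell markers averaged higher in 6 of 6 cases (median 0.23), T and NK cell markers in 8 of 10 (median 0.34) and B cell markers in 2 of 5 (median -0.12). The macrophage count there was 9 of 12 lower, with a median of -0.14, without saline replicates 2 and 3. Fibroblast markers averaged lower with Ang II than with saline in 6 of 6 cases (median -0.41) and higher with NaBu than with Ang II in 4 of 6 (median 0.17), and 0 were called by edgeR, with 3 at an unadjusted p under 0.05 in the first comparison and 0 in the second. Their sums were 1524 to 2497 CPM with saline, 1495 to 1569 with Ang II and 1548 to 1846 with Ang II+NaBu. Ventricular cardiomyocyte markers averaged higher with NaBu than with Ang II in 5 of 6 cases (median 0.22), with sums of 52590 to 53920 and 56470 to 62260 CPM. The part of all these cells in the member levels was not tested.

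**Figure D5:**
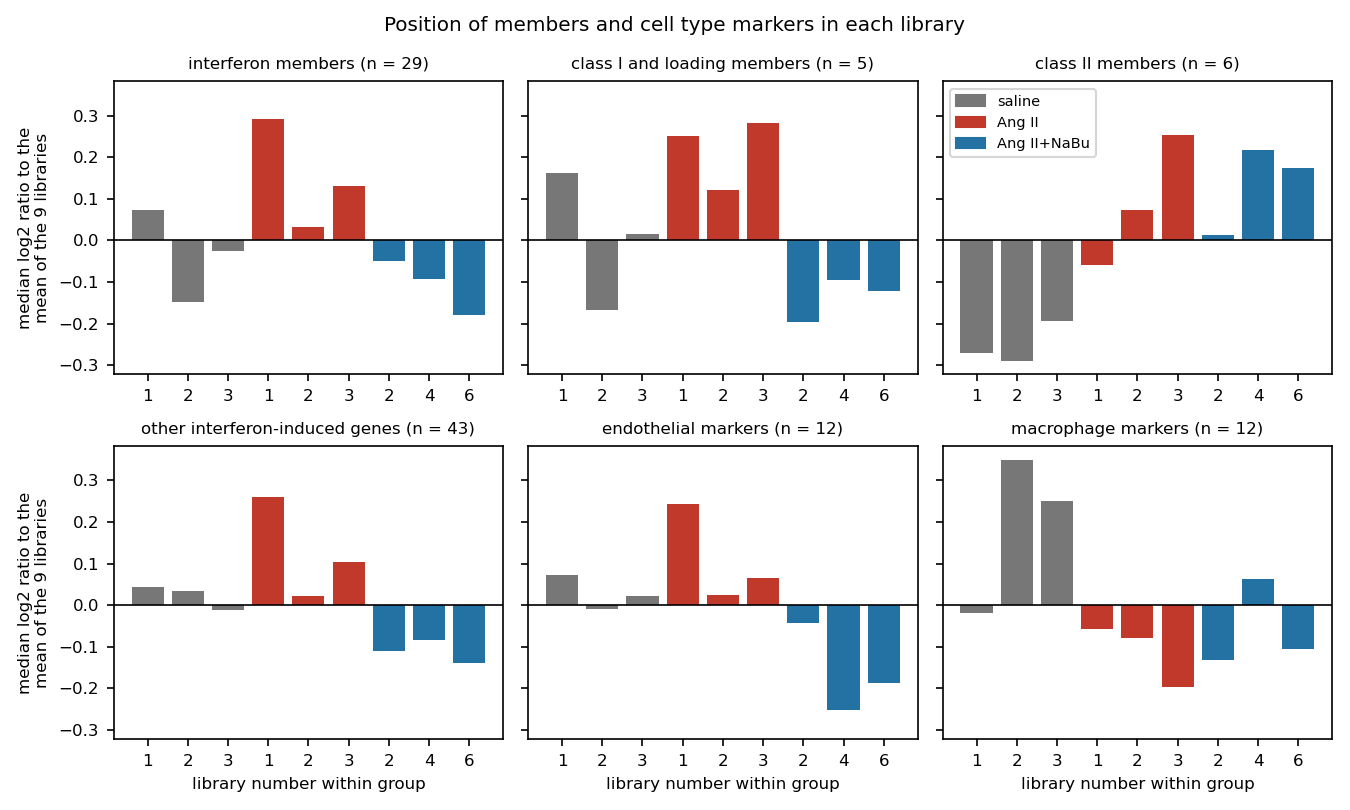
Median log2 ratio of the genes of a list to their mean over the 9 libraries, as 1 bar per library in each panel (grey saline, red Ang II, blue Ang II+NaBu; n genes in each title). Interferon members and endothelial markers both peak in Ang II replicate 1 (0.29 and 0.24) and are below 0 in the 3 NaBu libraries, while class II members are below 0 in the 3 saline libraries.

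The measurements of some members rest on how reads were assigned. Of the 44 members, 26 were summed from 1 transcript and 18 from more, and in 8 of these the most abundant transcript was not the same in every library, among them Mx1, Mx2, Irf9, Isg15 and Igtp. Mx1 and Mx2, the Oas genes, the Ifit genes and the RT1 genes have close relatives, so reads that they share cannot be placed with certainty. Oas1a, Oas2, Oasl, Isg15, Dhx58, Cxcl9, Cxcl10 and RT1-DMa averaged at or under 4 CPM in each group, where few fragments limit the precision.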

How the data were processed

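Per the labels' protocols, Trizol was used for RNA extraction from left ventricle, DNase I for removing DNA and a TruSeq kit for the libraries. The authors deposited 3 tables, 1 per group, of 3 libraries each, with an estimated count for each of 55767 rat RefSeq transcripts, per the file headers. Estimated counts were used as whole numbers and are not normalized. Above 1, their low values are most frequent near 4, 8, 12 and 16. A fragment may therefore give about 4 estimated counts, and a count would then overstate the fragments behind it. Per the submitters' processing notes, Bowtie 0.12.2 was used and the mouse build mm8 is named; for the counter, annotation and strand the answer is not given in the sources used here. The Ang II+NaBu columns are numbered 2, 4 and 6 and the samples differently, so these columns were assigned to the group only and are named by column number.

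From these, values were summed by gene name (22608 genes) and tested over all 9 libraries in R 4.3.3, by the quasi-likelihood test of edgeR 4.0.16 after filterByExpr and TMM scaling (prior count 0.125, common biological coefficient of variation 0.256). Benjamini-Hochberg adjustment ran over the 15467 genes tested, with a threshold of 0.05. CPM use the TMM-scaled total, except in the limit for members, which uses the unadjusted total. SE is the log2 difference over the square root of its F statistic. The procedure was tested on simulated data. There edgeR called 8.96% of genes changed 1.5-fold for Ang II against saline and 22.4% for Ang II+NaBu against Ang II. For Ang II+NaBu against saline it called 20.9%. Of genes changed 2-fold it called 62.7%, 58.2% and 59.7% in the same order. Each comparison had its own randomly picked genes, and all groups the same spread, so these shares do not rank the comparisons. A difference of 1.5-fold or less would thus mostly go uncalled. DESeq2 1.42.0, other scalings and filters, the highest transcript of each gene, and fits without single libraries were alternatives. The members and all gene lists were chosen with earlier results of these data known, so no p is given for a list. Test values are given for every member called and the 6 members with the lowest p in each comparison, and for each pathway list for the genes called or, with none called, the 2 with the lowest p. One item that this rule names is not reported here. Single members with no overlap between groups, marker genes and other members were named after their values were seen. Totals of 29284780 to 49865446 estimated counts set the precision; members at a few CPM rest on few fragments.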

Additional observations from a re-analysis of the deposited data

How the results depend on the processing

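No member was called for Ang II against saline in any setting run. Members called numbered 0 for Ang II+NaBu against Ang II and became 6 with DESeq2, 1 with upper-quartile scaling, 1 with values divided by 4, 6 with only the 2 groups, 6 without saline replicates 2 and 3, and 0 to 2 without single libraries. Against saline they were 0, and 2 with DESeq2, 1 with library total scaling and 0 to 1 without single libraries. Genes called over the whole table moved far more. For Ang II against saline they were 0, and 57 with DESeq2, 1 with only the 2 groups, 3 with the highest transcript per gene, 11 without saline replicates 2 and 3, and 0 to 7 without single libraries. For Ang II+NaBu against Ang II they were 248, and 1521, 1802, 5, 1695 and 1 to 1482 in the same order, with 4 under library total scaling. For Ang II+NaBu against saline they were 782, and 2007, 9, 21, 109 and 6 to 1303, with 412 under library total scaling. The cause was not tested. Library total scaling moved the median of all genes from -0.025 to -0.13 against Ang II and from -0.051 to -0.11 against saline, so the medians of -0.42 (interferon) and -0.28 (antigen presentation) it gave against Ang II include that shift. Without saline replicates 2 and 3 the interferon median was 0.11 and -0.16, and the antigen presentation median 0.10 and -0.058, for Ang II and for Ang II+NaBu against saline. Without single libraries the interferon medians ranged from 0.14 to 0.26, from -0.35 to -0.21 and from -0.12 to -0.058 in the 3 comparisons, and the antigen presentation medians from 0.14 to 0.33, from -0.20 to -0.10 and from 0.064 to 0.23. Among the genes named with a test value, direction turned in 3 cases: for Ang II against saline Psmb7 ranged from -0.084 (without saline replicate 2) to 0.329 and Psmb6 from -0.234 to 0.006 (without Ang II replicate 1) over the fits without single libraries, and Irf3 went to 0.22 against saline with its highest transcript alone. With the shared replicate number of saline and Ang II as a block (replicate block), 0 genes and 0 members were called. The medians there were 0.18 and 0.29. Same-numbered libraries correlated at -0.0041, -0.033 and 0.0078, so the numbers gave no sign of pairing. With 3 libraries a group these correlations cannot exclude it. The Ang II+NaBu columns share no numbering with the other groups by which a block could be set. Members at a few CPM cannot show small differences at this depth.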
